A study of Mus musculus with 8 samples.

Results

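The regions described here had a TET1 peak in each of the 3 nuclease-treated ChIP-seq lists but in no mock list, and they numbered 571 of 134739 regions on chromosomes 1 to 19. Overlapping or touching peaks of the 6 deposited lists were merged into regions, and the regions were chosen by whether each list had a peak there, so presence after treatment and absence in mock are not a result. They made up 1.70% of the 33610 regions that had a peak in all 3 nuclease-treated lists. In the other direction, 3145 of 47377 regions with a peak in all 3 mock lists had none after treatment (6.64%). Leaving out any 1 of the 6 libraries loosens the rule and gave 888 to 2149 nuclease-only regions, the fewest without mock replicate 3 and the most without nuclease-treated replicate 2.

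All libraries came from mouse embryonic stem cells of genotype HA-Tet1, in which the cell's own TET1 carries an HA tag. The design text names the line E14TG2a and the labels give the strain C57BL/6N. Permeabilised cells stood for 20 min with RNase H1 (0.2 U/ul) and Nuclease S1 (0.05 U/ul) or were mock treated, then received disuccinimidyl glutarate and formaldehyde as crosslinkers, and TET1 was precipitated through its tag. Each group had 3 ChIP libraries and 1 pooled input. The labels' agent field names RNase H1 alone, but by the protocol every treated sample received both enzymes, so their parts cannot be told apart. Nothing in the labels says that replicates were separate cultures, and the p-values given below therefore speak only for the spread among these libraries.

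TET1 oxidises 5-methylcytosine, the first step of active DNA demethylation, and in embryonic stem cells it is known for binding CpG-rich promoters through its CXXC domain. R-loops are RNA-DNA hybrids with a displaced single DNA strand. RNase H1 digests the RNA of such hybrids and Nuclease S1 cuts single strands. The lists hold no R-loop measurement. Positions are on mm9, and gene features at these positions were not analysed here.

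The nuclease-only regions were weak. Strength is given as the number of ChIP fragments at a peak's summit divided by the library's genome-wide background, both recovered from the deposited fold and p. In nuclease-treated replicates 1, 2 and 3 the median summit of a nuclease-only region held 14, 13 and 14 fragments over a genome-wide background of 2.11, 1.93 and 2.24. That is 6.65, 6.74 and 6.25 times background, against list medians of 8.07, 8.30 and 7.59. The median peak ranked at the 33.2, 32.7 and 31.6 percentile of its own list by the authors' q value. Averaged over the 3 libraries, 483 of the 571 regions (84.6%) lay between 5 and 8 times background. Only 7 regions reached 10 times background, where 14713 of the 29094 regions found in all 6 lists did (50.6%).

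Coverage in the nuclease-treated lists was higher where more mock lists also had the region. Regions with a peak in all 3 nuclease-treated lists and in 1 mock list, just outside the rule, numbered 1232. Their median coverage was 6.91 times background in the nuclease-treated lists and 6.57 in the mock list that had the peak. With 2 mock lists there were 2713 regions, at 7.37 and 7.32 times background, and with 3 mock lists the values rose to 10.0 and 12.8. On the other edge of the rule, 3595 regions had a peak in 2 nuclease-treated lists and no mock list, at 6.41 times background. The nuclease-only regions, at 6.67, lay between the values on either side of the rule.

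The weakest nuclease-only regions held as few fragments as the faintest peaks of the lists. In each nuclease-treated list the faintest summit in a nuclease-only region held 8 fragments, which was also the fewest in any peak over genome-wide background in every one of the 6 lists. In 74 regions at least 1 of the 3 peaks had a −log10 q under 2. The region of lowest mean −log10 q, chr6:129698235-129698585, had 8, 9 and 8 fragments in replicates 1, 2 and 3 and a mean −log10 q of 1.84. Next were chr11:69818130-69818560 (11, 10 and 12 fragments), chr14:114996514-114997186 (9, 9 and 10), chr15:82778465-82779545 (12, 12 and 14) and chr5:141125984-141126361 (11 in each). Mock lists give no value where no peak was called, so mock coverage in the nuclease-only regions is unknown. The median summit among the weakest 10% of peaks in each mock list, by q, held 10 fragments, or 4.44, 4.48 and 4.69 times background.

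The same kind of region was next followed into lists that took no part in choosing it. For each of the 9 ways to set aside 1 nuclease-treated and 1 mock list, regions were chosen that had a peak in the other 2 nuclease-treated lists and none in the other 2 mock lists. These numbered 2141 to 3337. The set-aside nuclease-treated list had a peak in 38.3 ± 6.31% of them and the set-aside mock list in 33.6 ± 4.74% (SD, n = 3 lists each). By nuclease-treated replicate the share was 40.0, 31.3 and 43.6%, and by mock replicate 35.9, 36.9 and 28.2%. The ranges overlapped, and the set-aside nuclease-treated list was the higher in 7 of the 9 choices. The mean difference of 4.66 percentage points ran from -3.56 to 14.3 over the choices, which share libraries, so no p-value is given.

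Regions chosen the other way round behaved otherwise. Of 6978 to 10174 regions with a peak in 2 mock lists and none in 2 nuclease-treated lists, the set-aside mock list had 62.7 ± 6.36% and the set-aside nuclease-treated list 32.9 ± 6.14% (SD, n = 3 lists each). The mock list was the higher in 9 of 9 choices, with a mean nuclease-minus-mock difference of -29.8 points. For nuclease-chosen regions the gap did not widen with strength. At 8 or more times background the shares were 47.5% in the nuclease-treated and 44.4% in the mock list, and under 6 times background 32.3% and 26.5%. For mock-chosen regions it did, from 26.6% against 43.0% at under 6 times background to 37.5% against 79.4% at 8 or more, nuclease-treated list first.

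**Figure D1:**
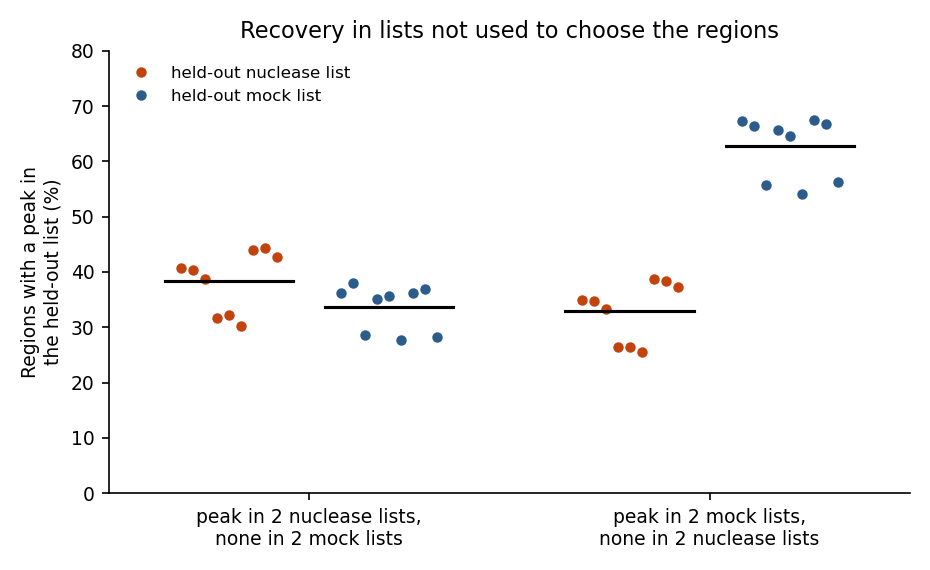
Each point is 1 of 9 choices of a set-aside nuclease-treated and mock list, the y axis is the percentage of chosen regions with a peak in the set-aside list, and black lines are means. Points of the nuclease-chosen regions overlap between the list types (means 38.3% and 33.6%), whereas those of the mock-chosen regions do not (32.9% and 62.7%).

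List length, threshold and peaks of high local background each moved this comparison. Mock lists were longer on average (72205 to 82126 peaks on chromosomes 1 to 19, against 61213 to 73197). With the set-aside lists cut to equal length by q, 32.8 ± 1.26% of nuclease-chosen regions had a peak in the nuclease-treated list and 18.6 ± 0.390% in the mock list (SD, n = 3 lists each), higher in 9 of 9 choices. Mock-chosen regions then gave 28.8% and 51.0%. With a stricter q threshold applied to all lists the order for nuclease-chosen regions turned, to 28.2% and 36.3%, with 364 to 591 regions per choice. A peak's q depends on its local background, whose median was 1.41 to 1.44 times the genome-wide level in the treated lists and 1.15 to 1.18 in mock. Whether local background accounts for the turned order was not tested. With peaks over 2 times the genome-wide level in local background left out of every list, the mean difference for nuclease-chosen regions was 11.7 points, against 4.66 with them.

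Nuclease-only regions lay near TET1 peaks of untreated cells. The nearest mock peak was a median of 1854 bp away, edge to edge (95% order-statistic interval 1665 to 2177). Of the 571 regions, 195 (34.2%) lay within 1 kb of a mock peak, 478 (83.7%) within 10 kb and 93 (16.3%) farther off. By mock replicate the median distance was 2651, 3059 and 3334 bp. Regions found in all 6 lists served for comparison, weighted so that their nuclease-treated coverage spread over bins of 1 times background as that of the nuclease-only regions did. Their nearest other region with a mock peak was 2099 bp away at the median, and 70.9% had one within 10 kb. Measured in the same way, to regions rather than single peaks, the nuclease-only median was 1806 bp. The difference between the sets lay at longer distances, since such a region lay within 1 kb for 34.5% of nuclease-only and 35.8% of all-6 regions.

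The nearest mock peaks were divided among kinds of region much as all mock peaks were. The nearest region with a mock peak was one found in all 6 lists for 153 of 571 (26.8%), and one found in a single mock list for 196 (34.3%). Over the whole set of mock-peak regions these shares were 26.8% and 36.1%. Where a mock peak lay within 1 kb, its region was found in all 6 lists for 67 of 195 (34.4%).

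The 5 nuclease-only regions closest to a mock peak were 60 to 99 bp from it. The region chr5:35329698-35330317 was 60 bp away, with 10, 12 and 14 fragments in replicates 1, 2 and 3. The region chr15:98427736-98428450 was 77 bp away, with 13, 10 and 16 fragments. The others were chr19:37897609-37898182 (89 bp), chr4:128718009-128718511 (96 bp) and chr2:30448858-30449687 (99 bp), the last beside a region found in all 6 lists. All 5 had a mean coverage between 5.74 and 7.55 times background, in the usual range.

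Some nuclease-only regions stood far from TET1 peaks. The farthest, chr6:98226297-98226987, was 258092 bp from a mock peak and 468531 bp from a region found in all 6 lists, with 11, 13 and 13 fragments and 5.92 ± 0.765 times background (SD, n = 3). Next came chr9:23917793-23918502, 188013 bp away with 10, 9 and 14 fragments. The region chr6:129698235-129698585, the weakest by q, was 163557 bp away. On chromosome 7, chr7:103205554-103206013 and chr7:101856690-101857047 were 143510 and 142709 bp away, at 6.10 and 5.74 times background. The 93 regions over 10 kb from a mock peak did not differ much in strength from the 195 within 1 kb, with medians of 6.57 and 6.72 times background, and were narrower, at 450 against 546 bp.

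**Figure D2:**
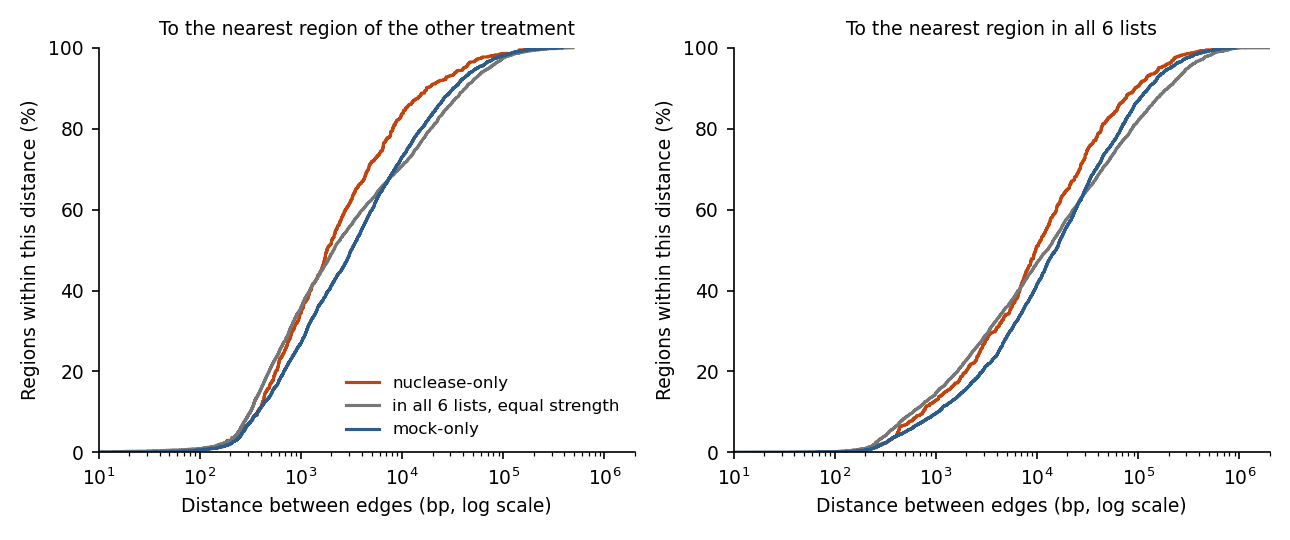
The cumulative percentage of regions is plotted against edge-to-edge distance in bp (log scale) for nuclease-only regions, mock-only regions and regions in all 6 lists weighted to equal nuclease-treated strength. On the left, nuclease-only and all-6 regions are measured to the nearest other region with a mock peak and mock-only regions to the nearest with a nuclease peak; 83.7% of nuclease-only regions lie within 10 kb, against 70.9% and 73.0%.

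Within 50 kb, regions found in all 6 lists were more often present around nuclease-only regions than around one another at equal strength. Within 10 kb or less the shares were not clearly apart. A region found in all 6 lists lay a median of 9729 bp away (95% order-statistic interval 8257 to 11870). One lay within 10 kb for 291 of 571 (51.0%, 95% exact Clopper-Pearson interval 46.8 to 55.1). That interval included the 46.9% of all-6 regions of equal strength. Within 1 kb the shares were 13.0% and 14.6%, and within 5 kb 34.2% and 35.9%. Within 50 kb they were 82.5% (79.1 to 85.5) and 71.7%. For all-6 regions of equal strength the nearest other one was 12593 bp away, and for mock-only regions 15337 bp. Counted within 1 Mb on either side, a nuclease-only region had a median of 54 all-6 regions, against 40 around all-6 regions of equal strength and 37 around mock-only regions. None within 100 kb was found for 55 nuclease-only regions (9.63%) and for 18.1% of the all-6 regions of equal strength. These distances come from the lists that chose the regions and are a description. The sets were not matched by chromosome, and chromosome 11 held 9.98% of nuclease-only regions against 4.66% of all-6 regions of equal strength.

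Local background, the level that the peak caller expected at a summit, had a median close to that of equally strong regions. It enters the calls that chose the regions and is therefore only described. Its median in nuclease-only regions was 1.27, 1.25 and 1.24 times the genome-wide level in nuclease-treated replicates 1, 2 and 3, and 1.20, 1.22 and 1.21 in all-6 regions of equal strength. The difference of 0.0434 was a small part of the gap to all peaks of the lists, which had 1.44, 1.43 and 1.41. Leaving out a library changed it to between 0.00699 and 0.0503; it stayed above 0 each time but fell over 1.5-fold without mock replicates 1, 2 or 3 and without nuclease-treated replicates 1 or 3. Against all all-6 regions, which were stronger, the difference was -0.322. Summits whose local background equalled the genome-wide level were fewer, making up 14.4 ± 1.07% of nuclease-only regions and 27.5 ± 1.39% of all-6 regions of equal strength (SD, n = 3). The share over 2 times the genome-wide level was 2.98 ± 0.525% and 2.81 ± 0.363%. The libraries of a group share 1 input, so this spread is not that of independent backgrounds.

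Several of the strongest nuclease-only regions had a high local background. Of the 4 regions at 15 or more times background, 3 exceeded 2 times the genome-wide level in local background. The region chr8:73956386-73957065 had 198, 192 and 222 fragments where local background was 24.8 times the genome-wide level, and a fold of 3.88. The region chr7:12600218-12603357, at 2.30 times, had 30, 38 and 34 fragments in peaks of 2811, 3122 and 2785 bp. The region chr7:46610101-46610550, at 2.60 times, had 34, 31 and 29 fragments, and chr17:30890125-30890679, at 2.76 times, had 20, 19 and 30. The fifth by local background was chr13:68199850-68200235, at 2.27 times, with 15, 19 and 21 fragments. In all, 15 regions (2.63%) had a mean over 2 times, with a median coverage of 9.27 times background.

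Peak numbers in the mock lists skip at places, and 18 nuclease-only regions (3.15%) lay between mock peaks where at least 1 number was skipped. Both chromosome 7 regions just named were among them, as was chr15:102349461-102349906 below. Why numbers were skipped is unknown. A skipped number may mark a peak of that interval that was left out of the list, so absence in mock is less certain for these 18. Without them 553 regions were left.

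**Figure D3:**
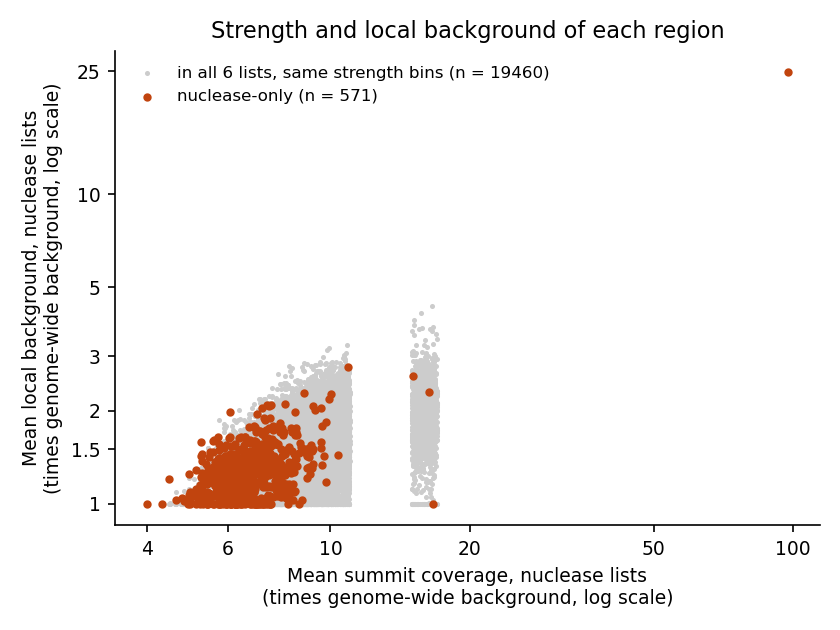
Mean local background is plotted against mean summit coverage, both in times the genome-wide background over the 3 nuclease-treated lists (log axes), for 571 nuclease-only regions and for 19460 regions in all 6 lists from the same strength bins. Nuclease-only regions sit at the weak end, and a single one, at 97.6 times background, has a local background of 24.8.

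Among regions whose local background was under 2 times the genome-wide level, chr11:42881775-42882087 was the strongest. It had 25, 38 and 41 fragments in replicates 1, 2 and 3, or 16.6 ± 4.18 times background (SD, n = 3), and its local background equalled the genome-wide level in all 3. Its summits lay within 2 bp of one another and its peaks were 251, 256 and 299 bp wide. The nearest mock peak was 2911 bp away, in a region of all 6 lists at 7.79 times background in mock. The second, chr15:102349461-102349906, had 25, 19 and 21 fragments, at 10.4 ± 1.33 times background (SD, n = 3), with a mock peak 918 bp away.

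The other 10 of the 12 strongest regions of ordinary local background lay between 9.14 and 9.78 times background. Replicates were close in chr14:103464716-103465018, with 21, 20 and 20 fragments, and in chr8:126838958-126839344, with 20 in each. They were further apart in chr6:113137494-113137855, with 17, 26 and 16, and in chr8:27118316-27118994, with 20, 15 and 27. Chromosome 11 held 4 of the 10. These were chr11:77605390-77605781 (16, 19 and 25 fragments), chr11:85606149-85606747 (20, 17 and 23), chr11:105770191-105770548 (21, 14 and 23) and chr11:99911451-99911857 (19, 14 and 25). The remaining 2 were chr7:137370410-137370984 (23, 17 and 21) and chr16:17836618-17837067 (21, 19 and 17). Of these 10, 3 had their nearest mock peak in a region found in a single mock list.

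Nuclease-only regions were narrow. The merged region had a median width of 507 bp (95% order-statistic interval 492 to 527), against 802 bp for all-6 regions of equal strength. The 2 widths are not like for like, since an all-6 region merges peaks of more lists. Single nuclease-treated peaks gave medians of 344, 339 and 358 bp in nuclease-only regions and 463, 441 and 488 bp in all-6 regions of equal strength, a mean difference of -117 bp. In 566 of the 571 regions (99.1%) each nuclease-treated list had 1 peak, against 90.6% of all-6 regions of equal strength. These widths and peak numbers depend on the calls that chose the regions. Whether wider regions were left out more often, having more room to touch a mock peak, was not tested.

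The rule places the 3 nuclease-treated peaks of a nuclease-only region in 1 merged region. Their closeness in position is therefore a description and not a result. The range of their summits had a median of 139 bp, and was at most 100 bp in 226 regions (39.6%). In all-6 regions of equal strength it was 200 bp and 25.5%, and these were also wider. At least 1 base was shared by all 3 peaks in 545 regions (95.4%), against 91.1%. The relative spread of coverage over the 3 libraries was alike, with a median coefficient of variation of 14.5% and 15.0%.

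Of the 5 widest nuclease-only regions, only chr7:12600218-12603357, 3140 bp wide, was wide in every nuclease-treated list, each of which had a peak of at least 2785 bp. The second widest, chr2:59668357-59670112 with 1756 bp, was made of peaks of 586, 528 and 537 bp whose summits lay up to 1535 bp apart. In chr7:148155282-148156642 a single peak of 1351 bp in replicate 2 spanned peaks of 275 and 274 bp in replicates 1 and 3. In chr8:125066408-125067731 and chr19:3593564-3594949 it was replicate 3 that had the long peak, at 1206 and 1386 bp.

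The nuclease-only regions were spread over all 19 chromosomes, in other proportions than equally strong regions of all 6 lists. Chromosome 11 held the most, 57 of 571 or 9.98% (95% exact Clopper-Pearson interval 7.65 to 12.7), against 4.66% of the all-6 regions of equal strength. Chromosome 15 held 7.01% (5.05 to 9.42) against 3.08%, chromosome 6 held 7.36% (5.35 to 9.81) against 4.42%, and chromosome 8 held 7.88% (5.81 to 10.4) against 5.39%. Lower shares were found on chromosome 4, with 7.88% (5.81 to 10.4) against 11.8%, chromosome 5, with 6.65% (4.75 to 9.02) against 10.2%, and chromosome 10, with 2.80% (1.61 to 4.51) against 4.74%. For the other 12 chromosomes the interval included the share of the equally strong regions. Intervals cover counting error only, and neighbouring regions are not independent. The weighting to equal strength itself moved the all-6 share from 10.8% to 4.66% on chromosome 11 and from 7.66% to 11.8% on chromosome 4. On chromosomes 6 (4.58% and 4.42%) and 10 (4.76% and 4.74%) it changed little.

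The picture differed against all 33610 regions with a peak in every nuclease-treated list, which were stronger. Chromosome 11 held 10.8% of these, chromosome 4 held 7.79% and chromosome 5 held 7.56%, all within the nuclease-only intervals. Read as a share of those regions, nuclease-only regions made up 42 of 1561 on chromosome 6, or 2.69% (1.95 to 3.62), and 18 of 1941 on chromosome 17, or 0.927% (0.551 to 1.46). Chromosome 10 had 16 of 1577 (interval 0.581 to 1.64%). For these 3 of 19 chromosomes the interval left out the overall 1.70%. Only chromosomes 6 and 10 stood apart, in the same direction, in both comparisons. The intervals were not adjusted for the 19 chromosomes looked at, so some can leave out the reference share by counting error alone.

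**Figure D4:**
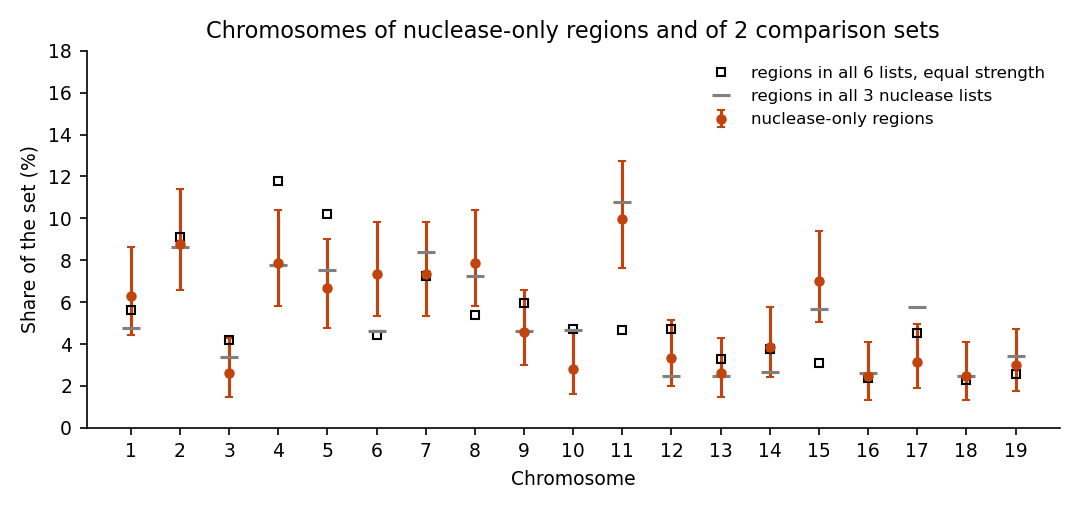
For each chromosome the filled point is its percentage of the 571 nuclease-only regions with a 95% exact Clopper-Pearson interval, the open square its percentage of regions in all 6 lists weighted to equal strength, and the grey dash its percentage of the 33610 regions in all 3 nuclease-treated lists. On chromosome 11 the point (9.98%) is close to the dash (10.8%) and above the square (4.66%), and on chromosome 4 it (7.88%) is below the square (11.8%).

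At this number of regions most had no other within 100 kb. Another one was within 10 kb for 8 regions (1.40%), within 100 kb for 77 (13.5%) and within 1 Mb for 349 (61.1%), with a median distance of 660093 bp. These shares depend on how many regions the rule finds. With 1 library left out, which gave more regions, 21.5 to 40.0% had another within 100 kb, and each of the 6 libraries raised the share by over 1.5 times when left out. Lists of equal length gave 25.4%. No set of equal strength and number was compared. The 77 formed 35 groups, of which 6 had 3 or more members. The largest group had 4 members over 197815 bp, at chr8:125017387-125215201. The closest pair, chr15:6836276-6836626 and chr15:6838945-6839399, was 2318 bp apart, with 13, 10 and 13 fragments in the first and 15, 11 and 11 in the second. Pairs on chromosome 9 (chr9:119445347-119446094 and chr9:119450416-119450827), chromosome 4 (chr4:131358237-131358592 and chr4:131364063-131364474) and chromosome 2 (chr2:180199902-180200330 and chr2:180208705-180209210) were 4321, 5470 and 8374 bp apart. The fifth pair, chr4:63039999-63040452 and chr4:63052118-63052661, was 11665 bp apart.

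Persistent regions beside the nuclease-only ones had lower coverage after treatment. The step was smaller than at other persistent regions as first measured, but not under every alternative. These regions had peaks in every list, but were picked by nearness to regions that the treated and mock labels chose. Their difference is therefore not independent of the rule. There were 620 regions found in all 6 lists within 10 kb of a nuclease-only region. Their median coverage was 11.6 ± 0.424 times background in mock libraries and 9.88 ± 0.0793 after treatment (SD, n = 3 each), while that of the other all-6 regions was 12.8 ± 0.163 and 10.1 ± 0.282. In both sets the medians of treated and mock libraries did not overlap. Every nuclease-treated library was below every mock library in 207 of the 620 single regions (33.4%), against 44.8% of all 29094, and above in 14 (2.26%), against 1.39%. On a log2 scale the neighbours' median minus that of the other regions was -0.14 in mock and -0.02 after treatment, a difference of 0.119. The exact two-sided permutation p was 0.1, the smallest that 3 libraries against 3 can give, so the design cannot reach 0.05. Labels were permuted without choosing the regions again, so this p does not allow for how the neighbours were picked.

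The neighbours were also the weaker set in mock. When the other regions were weighted to the mock coverage of the neighbours, a comparison added after seeing the data, the difference was 0.0277 (exact two-sided permutation p = 0.4). Counting neighbours within 50 kb it was 0.0422 (exact permutation p = 0.3), and around the 376 regions with no mock peak within 1 kb it was 0.0551 (exact permutation p = 0.4). With a stricter q threshold it turned to -0.109 (exact permutation p = 0.1). Local background at the neighbours was 1.28 ± 0.0127 in mock libraries and 1.56 ± 0.0167 after treatment, against 1.27 ± 0.00491 and 1.58 ± 0.00548 at the other regions (SD, n = 3 each).

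**Figure D5:**
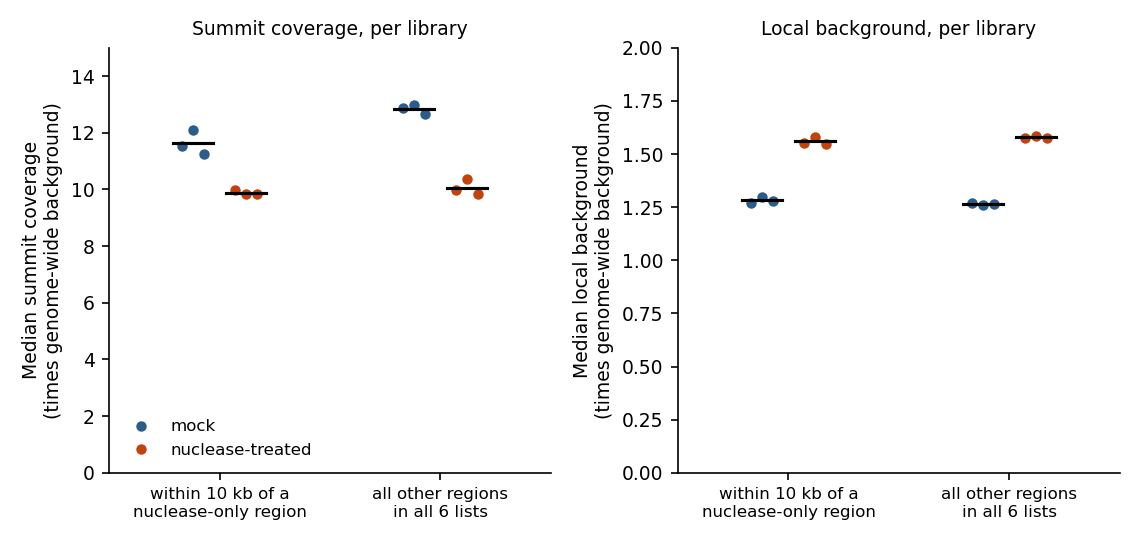
Points are the 3 libraries of each group and black lines their means, for regions in all 6 lists within 10 kb of a nuclease-only region (620) and for all others; the y axes give median summit coverage and median local background in times the genome-wide background. Coverage falls from 11.6 to 9.88 beside nuclease-only regions and from 12.8 to 10.1 elsewhere, and local background is higher in nuclease-treated libraries in both sets.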

How the data were processed

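HA-TET1 ChIP-seq was analysed from 6 peak lists on mm9, 3 mock and 3 nuclease-treated. The submitters' processing notes name Bowtie2 2.2.8, MACS2 2.1.1 and bedtools 2.25.0; their parameters were not in the sources used here. Each library had its own peak call with its condition's pooled input, per the file headers (the peak names). The deposited fold is a ratio of summit coverage plus 1 to local background plus 1. The authors gave each p-value and q-value as −log10. The deposited score is the −log10 q multiplied by 10 without its decimals and was not used.

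Whole-number coverage and local background were solved from fold and p, within 0.001 of the −log10 p for all peaks but 1, in mock replicate 3. The commonest local background is the genome-wide level. The solving, merging and distance steps were tested on simulated data. Total fragment numbers are unknown, and intervals cover counting error only. Python 3.11.15, numpy 2.4.6, scipy 1.17.1 and pandas 2.3.3 were used. Peaks were merged across lists, and the peak of highest coverage stood for a list in a region. All-6 regions were weighted to 570 of the 571 regions, since none matched the strongest, and their weights equal those of 4382 unweighted regions in effective number.

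The regions and lists were chosen with earlier results of these data known. Named regions are the 12 strongest with a local background under 2 times the genome-wide level, the 5 of highest local background, farthest from and nearest to a mock peak, widest and lowest in −log10 q, and the 5 closest pairs. Cutting only the set-aside lists, the split of set-aside shares by strength, leaving out regions beside skipped mock numbers and weighting neighbours by mock coverage were chosen after seeing the data.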

Additional observations from a re-analysis of the deposited data

Results flagged for a closer look

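Outside chromosomes 1 to 19, the count of nuclease-only regions exceeded that of mock-only regions on the mitochondrial genome alone, with 1 region against 0; on chromosome X there were 3 against 74, and on chromosome Y 0 against 3. Chromosome M was not part of the comparisons above. For these chromosomes no share was computed among regions found in every list of a group.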

How the results depend on the processing

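Of 109 recomputed values, 53 were counted as unchanged, 53 as moved and 3 as changed in sign, and the cause was not tested. Unchanged meant within the spread or count limit of the reported value. For the neighbour difference only the sign was compared, so values of 0.0277 and 0.0422 against 0.119 were counted as unchanged. With a stricter q threshold (−log10 q of at least 6.60) there were 69 nuclease-only regions, the distance to a mock peak was 2534 bp and to an all-6 region 17982 bp, 7.25% had another member within 100 kb, the width difference was -406 bp and the local background difference 0.0194, the set-aside difference was -8.13 points and the neighbour difference -0.109. With lists of equal length (61213 peaks) the values were 942 regions, 2284 bp, 25.4% within 100 kb, a width difference of -261.5 bp and 14.1 points (14.2 with only the set-aside lists cut). Without peaks of high local background the all-6 distance was 12828.5 bp, 23.0% lay within 100 kb, the width difference was -311.5 bp, the background difference 0.0749 and the set-aside difference 11.7 points. With no mock peak within 1 kb there were 376 regions, 4147 bp from a mock peak and 16899.5 bp from an all-6 region, 5.59% within 100 kb and a background difference of 0.00172. Merging within 500 bp gave 2579 bp, 10.3% and -350 bp. Distance between summits was 2443 bp, and 1.40% had another member within 10 kb. The width difference was -264 bp with a shared base, -139 bp with 50% overlap, -117 bp for single peaks and -534 bp without matching, where the background difference was -0.322. Leaving out 1 library gave 888 to 2149 regions, 1864 to 2131 bp from a mock peak, 8634 to 10525.5 bp from an all-6 region, 21.5% to 40.0% within 100 kb, width differences of -328 to -241 bp, background differences of 0.00699 to 0.0503 and neighbour differences of 0.0765 to 0.172. Whether replicate numbers pair the libraries is unknown. Deviations of same-numbered libraries at all-6 regions correlated at 0.0119, -0.00458 and 0.0366, and those of other pairs at -0.0395 to 0.0323. Counting error weakens such correlations, so they cannot exclude a pairing. With a replicate block the neighbour difference was 0.119 (exact sign-flip permutation p = 0.25, the smallest possible with 3 pairs). Counting error is large for single regions, whose median summit held 13 or 14 fragments.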
